A study of Mus musculus with 10 samples.

Results

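The 4 kidney cortex libraries of days 7 and 11 after injury were compared within classes of single cells to describe recovery between those days. Cells were taken from the libraries titled day 7, replicates 1 and 2, and day 11, replicates 1 and 2, keeping barcodes with at least 500 detected genes and at most 50% of their counts from mitochondrial genes. This left 19467 cells of the 52797 kept in the whole series, with 3621 and 5154 from day 7 and 5409 and 5283 from day 11. The series holds 10 Drop-seq libraries from mice aged 4 weeks, namely 1 control library from normal kidney, 1 each of days 1, 2 and 4 after injury, and 2 each of days 7, 11 and 14. Drop-seq captures the RNA of single cells on barcoded beads and counts the 3' ends of transcripts. Injured kidneys are named by day only, and strain, sex, kind of injury, animal and batch were not given in the sources used here. Since nothing says that libraries of the same day came from separate animals, p-values measure the spread between these libraries, which may be technical. That spread is largely pooled over genes.

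The proximal tubule reabsorbs most of the filtered glucose, amino acids and phosphate, secretes organic anions, and burns fatty acids to do so. After acute injury its surviving cells lower these functions, express injury genes such as Havcr1 (kidney injury molecule 1) and chemokines, and can later regain their differentiated state. Macrophages and T cells that enter the cortex clear debris, present antigen and release cytokines during the same period.

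Cells were placed in classes by how many of 10 panel genes per class they expressed. A class needed at least 3 panel genes and a lead of at least 2 over every competing class. Genes of a class's own panel are no result for that class. Values below are CPM of the class's summed counts in a library, scaled by the trimmed mean of M-values (TMM), and are given in the order of replicates. Changes are log2 of day 11 over day 7 with their standard error. A gene is called where the quasi-likelihood test of edgeR, adjusted by Benjamini-Hochberg over all genes tested in the class, gives an adjusted p under 0.05, and the words rose and fell are used of called genes only.

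Some features set libraries apart before any comparison. The kept libraries held 7091848 and 16322686 counts at day 7, and 11214864 and 10578381 at day 11. Medians per cell were 1244, 1710, 1451 and 1389 counts, and at most 4 barcodes were shared between any 2 libraries. The deposited day 11 tables go down to 300 genes per barcode, unlike those of day 7, and the limit of 500 genes removed 5362 and 5424 barcodes of day 11 and none of day 7. Proximal tubule cells had 4.87% and 5.82% mitochondrial counts at day 7 against 12.2% to 16.2% at day 11, and phagocytes had 2.86% to 3.39% against 9.04% to 11.5%. Counts of other classes' genes differed too. Proximal tubule panel genes made up 0.0185% to 0.0352% of phagocyte counts at day 7 and 0.127% to 0.150% at day 11, while phagocyte panel genes made up 0.0204% to 0.0826% of proximal tubule counts at day 7 and 0.00604% to 0.00711% at day 11.

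A small set of genes separated the control and both day 11 libraries from the other 7 libraries by at least 2-fold in whole-library CPM, by a rule chosen after the values were seen. Of these 13 genes, AA465934, Abca13 and BC018473 were higher in the control and day 11, and Cwc22, 6 adjacent-numbered predicted genes (Gm13693 to Gm13698), Gm13691, Gstt1 and Lipa were lower. In proximal tubule cells Cwc22, a splicing factor, had 253 and 114 CPM at day 7, 12.3 and 11.2 at day 11, 15.6 in the control, and 112 and 101 at day 14. AA465934 had 1.23 and 2.02 CPM at day 7, 66.3 and 38.5 at day 11, 53.7 in the control, and 2.66 and 2.01 at day 14. Between 9 and 12 of the members tested were called in each class, beside 3.5% (phagocytes) to 42% (proximal tubule) of all genes. The rule itself used the day 7 and day 11 values, so these calls largely follow from it and are no separate result. Abca13 is also a gate gene of distal convoluted tubule and is no result there. For the 13 genes, recovery and a difference between the animals or their processing cannot be told apart.

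The make-up of the cortex suspension turned over between the 2 days. Proximal tubule cells were 14.5% and 15.3% of kept cells at day 7 and 66.5% and 73.9% at day 11, against 62.6% in the control and 75.4% and 75.5% at day 14. Mononuclear phagocytes, the macrophages, monocytes and dendritic cells, were 31.2% and 32.0% at day 7 and 1.90% and 1.19% at day 11, against 0.652% in the control. As means these are 14.9% ± 0.580 and 70.2% ± 5.27 (SD, n = 2) for proximal tubule, and 31.6% ± 0.557 and 1.55% ± 0.503 (SD, n = 2) for phagocytes. The day 7 and day 11 libraries did not overlap in either class.

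T and NK cells were 1.49% and 5.01% at day 7 and 0.0924% and 0.0946% at day 11. Tubular cells that the gate placed in no single segment were 16.8% and 12.6% and then 3.88% and 3.73%. Many of these met the limit of 3 genes in 2 or more segment panels, as given below. Collecting duct principal cells were 6.05% and 7.43% and then 3.42% and 2.46%. All 3 classes were lower at day 11 in both libraries. Podocytes, the filter cells of the glomerulus, were 0.497% and 0.757% at day 7 and 3.85% and 2.78% at day 11, above the control's 1.11% and day 14's 0.519% and 0.243%. Thick ascending limb (3.45%, 5.22%, 5.64%, 4.01%) and distal convoluted tubule (1.74%, 2.27%, 2.83%, 2.23%) overlapped between the days. For distal convoluted tubule that depended on the gate, since the libraries did not overlap with 4 panel genes (means of 1.55% at day 7 and 2.52% at day 11) or with a lead of 3 (0.893% and 1.99%). Shares of a library add up to 100%, so each moves the others, and they do not give the number of cells in the tissue. With 2 libraries against 2, an exact two-sided permutation test cannot give a p below 0.333.

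**Figure D1:**
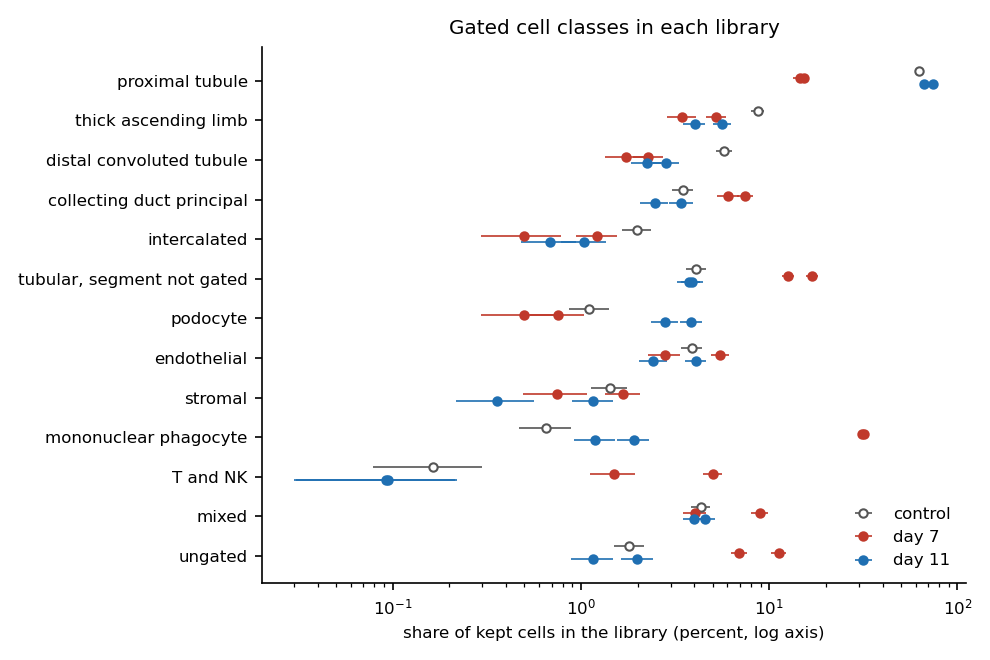
Share of kept cells in each gated class (percent, log axis), with 1 point per library and bars for exact 95% binomial intervals, which cover counting error only; the control is open grey, day 7 red and day 11 blue. The day 11 points sit far to the right of day 7 for proximal tubule (66.5% and 73.9% against 14.5% and 15.3%) and far to the left for phagocytes (1.90% and 1.19% against 31.2% and 32.0%).

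Markers that the gate did not use were present in the classes they mark, with exceptions in thinly filled classes. The 19 stromal cells of the second day 11 library held no Col1a1 or Acta2, and the 5 and 5 T and NK cells of day 11 held no Cd8a, Klrd1 or Thy1. Proximal tubule, thick ascending limb, distal convoluted tubule, collecting duct principal, segment-less tubular, endothelial and phagocyte classes had enough cells in all 4 libraries for a test. Stromal cells, podocytes, intercalated cells and lymphocytes did not, so their genes were not tested.

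Proximal tubule cells (526 and 791 at day 7, 3595 and 3905 at day 11) held the most counts of the tested classes, summed over the 4 libraries, and the largest number of called genes. In them 27 of 37 transport, 30 of 35 metabolic and 19 of 22 fatty acid oxidation genes rose, and 31 of 35 injury, all 18 interferon and all 10 MHC class I genes tested fell. Of 12533 genes tested, 2588 rose and 2681 fell, 42% in all (20.6% upward and 21.4% downward), and the 2 days did not overlap for 74.4%. With scaling by library size alone, 1196 rose and 6306 fell, and the median change of all genes moved from -0.06 to -0.75. Directions below are therefore relative to the bulk of genes in the class. Without the second day 11 library 3447 genes were called. Proximal tubule cells at the lower limit of 3 panel genes numbered 62 and 82 at day 7 and 29 and 21 at day 11, so the class is a range of a score, and cells that had lost most panel genes lie outside it.

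Of 37 proximal transport genes, 27 rose, 2 fell and 8 were not called, with a median log2 change of 1.80. Slc22a6, the organic anion transporter OAT1, had 68.8 and 156 CPM at day 7 and 883 and 1006 at day 11, against 1009 in the control. Both day 11 libraries lay above both day 7 libraries and next to the control, with a change of 3.04 ± 0.35 (SE, n = 2 against 2; edgeR adjusted p = 0.000104). Slc22a7, the organic anion transporter OAT2, was at 0 and 1.82 CPM at day 7 and 101 and 145 at day 11, against 163 in the control (6.50 ± 0.46; edgeR adjusted p = 9.66e-06). It was the called gene with the largest upward change among those named by rule. Slc7a13, a cystine and aspartate carrier of the late proximal tubule, had 19.1, 199, 977 and 1341 CPM (3.36 ± 0.72). Its day 7 libraries stood far apart from each other, and both lay below day 11.

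Transport genes did not all move upward. Slc13a1, the sodium sulfate cotransporter, fell from 640 and 425 CPM to 272 and 300, with 191 in the control (-0.89 ± 0.24; edgeR adjusted p = 0.0136). Slc4a4, which carries bicarbonate across the basolateral membrane, had 816, 572, 883 and 718 CPM, overlapped between days and was not called (0.21 ± 0.24; edgeR adjusted p = 0.511). Scaled by library size alone, 21 transport genes rose and 5 fell, with a median of 1.11.

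Of 35 metabolic genes tested of the 36 on the list, 30 rose, 1 fell and 4 were not called, with a median of 2.90. Kap, the androgen-regulated kidney protein that is among the most abundant transcripts of mouse proximal tubule, had 971 and 6806 CPM at day 7 and 65568 and 65659 at day 11, against 72954 in the control (4.08 ± 0.70; edgeR adjusted p = 0.00114). Cyp4b1, a cytochrome P450 monooxygenase, went from 123 and 436 to 4870 and 5880 CPM (4.25 ± 0.50). Inmt, an amine N-methyltransferase, went from 1.84 and 84.9 to 1268 and 1456 CPM (4.84 ± 0.86). For all 3 genes the second day 7 library stood above the first and well below day 11.

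Further called genes of metabolism came from several pathways. Cyp2e1 (274, 322, 2602 and 3250 CPM), another P450 enzyme, changed by 3.29 ± 0.24. Akr1c21, a hydroxysteroid dehydrogenase, went from 95.9 and 134 to 1669 and 1831 CPM and so passed the control's 756. Acsm3, a medium-chain acyl-CoA synthetase, had 4.30, 81.4, 869 and 1040 CPM. Aspdh, an aspartate dehydrogenase family member, Cbs, the first enzyme of transsulfuration, and Nat8b, an N-acetyltransferase, rose by 4.53, 4.4 and 4.36 on the log2 scale. The gluconeogenic enzymes Pck1 (67.0, 165, 1254 and 1486 CPM) and G6pc (20.3, 24.4, 253 and 187 CPM), named after their values were seen, changed by 3.53 ± 0.38 and 3.27 ± 0.25.

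Of 22 fatty acid oxidation genes tested, 19 rose, none fell and 3 were not called, with a median of 1.47 (14 rose and 2 fell when scaled by library size alone). Acadm, the medium-chain acyl-CoA dehydrogenase, went from 245 and 285 to 1369 and 1208 CPM, below the control's 1979 (2.28 ± 0.22; edgeR adjusted p = 4.32e-05). Cpt1a, the carnitine shuttle enzyme that admits fatty acids to mitochondria, had 71.3, 68.9, 104 and 115 CPM (0.65 ± 0.19; edgeR adjusted p = 0.0214), and this turned to -0.051 with scaling by library size alone. Cpt1a was named after its values were seen.

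Of 35 tubule injury genes tested, none rose, 31 fell and 4 were not called, with a median of -3.73. Havcr1 had 2319 and 1023 CPM at day 7 and 7.81 and 4.83 at day 11, against 3.18 in the control (-8.04 ± 0.49; edgeR adjusted p = 5.62e-06). Thinned to 800 counts per cell, 61.0% and 39.0% of proximal tubule cells held a Havcr1 count at day 7 and 0.449% and 0.417% at day 11 (unthinned 69.4%, 57%, 0.946% and 0.691%; 39, 25, 31 and 70 shallower cells left out). In phagocytes, which should lack it, the thinned shares were 7.77% and 2.51% at day 7 and 0 of 103 and 0 of 63 cells at day 11. The fall therefore showed both in level and in how many cells held the transcript, and the day 7 share lay far above the phagocyte background.

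Vcam1, a leukocyte adhesion molecule of injured tubule cells, had 822 and 637 CPM and then 7.62 and 6.56 (-6.68 ± 0.29). C3, the central complement component, had 953, 916, 8.73 and 10.4 CPM (-6.61 ± 0.27). Cd44, the hyaluronan receptor, had 209, 332, 2.42 and 1.38 CPM (-7.15 ± 0.37). The days did not overlap for any of these 3. Ccl5, a chemokine for T cells and monocytes, had 653 and 1376 CPM and then 1.86 and 3.45 (-8.56 ± 0.49; edgeR adjusted p = 4.24e-06). Ccl5 is also made by T cells, whose share was lower at day 11 as given above. Their part in this result was not tested. Ubd, a ubiquitin-like modifier induced by inflammatory cytokines, had 779, 1027, 5.02 and 4.49 CPM.

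Not all injury genes were back at the control level. Spp1, the secreted phosphoprotein osteopontin, had 8345 and 11352 CPM at day 7, 826 and 654 at day 11, and 103 in the control (-3.73 ± 0.27; edgeR adjusted p = 1.07e-05). Its day 14 values were 160 and 192, between day 11 and the control. Cp, the copper-carrying ferroxidase ceruloplasmin, had 913, 819, 40.0 and 23 CPM. Relative to the single control library, the injury list had a median log2 difference of 4.89 at day 7, 1.36 at day 11 and 0.34 at day 14. Transport genes had medians of -1.59, 0.16 and 0.42, and metabolic genes -2.62, 0.18 and 0.25, on the log2(CPM + 1) scale. With 1 control library these are descriptions.

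**Figure D2:**
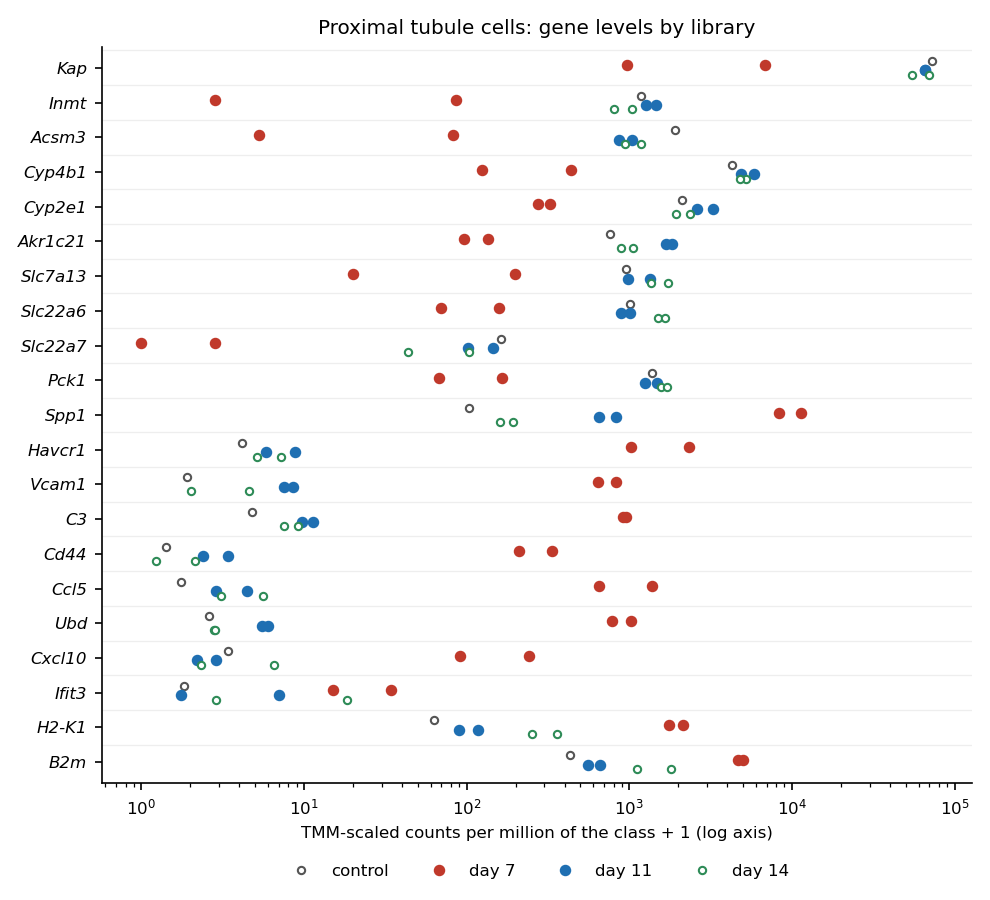
Proximal tubule genes by library, as TMM-scaled CPM of the class plus 1 on a log axis, with 1 point per library (control open grey, day 7 red, day 11 blue, day 14 open green). Havcr1 drops from 2319 and 1023 to 7.81 and 4.83 CPM while Kap climbs from 971 and 6806 to 65568 and 65659, and both day 11 libraries lie near the control.

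Genes of nephron development moved less. Of 16 tested of 20, 8 fell, 7 were not called and 1, Bmp7, rose, with a median of -0.59. Sox4, a transcription factor of the developing nephron, fell from 247 and 316 to 26.8 and 20.7 CPM, with 14.2 in the control (-3.57 ± 0.24; edgeR adjusted p = 7.48e-06). Sox9, a regulator of tubule repair named after its values were seen, had 62.1, 57.4, 5.76 and 6.90 CPM against 0.837 in the control. Of 25 proliferation genes 17 fell, and Cks2, a cyclin-dependent kinase subunit, rose from 56.6 and 59.0 to 195 and 224 CPM (1.85 ± 0.20). Mki67, the classical marker of cycling cells named after its values were seen, had 34.4, 16.4, 7.43 and 3.45 CPM (-2.14 ± 0.45; edgeR adjusted p = 0.0035).

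The interferon list fell whole. All 18 genes tested were lower and called in proximal tubule cells, against 21.4% of all genes downward, with a median of -3.87. Cxcl10, a chemokine for T cells, had 242 and 90.3 CPM at day 7 and 1.86 and 1.21 at day 11 (-6.71 ± 0.55; edgeR adjusted p = 1.66e-05). Ifit3, an interferon-induced antiviral protein named after its values were seen, had 33.2, 14.1, 0.743 and 6.04 CPM (-2.66 ± 0.65; edgeR adjusted p = 0.00803). Ifitm3, an antiviral membrane protein, changed least among those named here, from 52.3 and 45.1 to 23.6 and 27.8 CPM. Relative to the single control library, the list had median log2 differences of 3.85 at day 7, 0.62 at day 11 and 1.34 at day 14. Day 14 thus lay above day 11, and recovery and a difference between animals or processing cannot be told apart.

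MHC class I and its peptide supply fell in the same cells. All 10 genes tested fell, with a median of -3.86. H2-K1, a classical class I heavy chain, had 1759 and 2153 CPM at day 7 and 117 and 88.5 at day 11, against 62.4 in the control and 356 and 250 at day 14 (-4.25 ± 0.26; edgeR adjusted p = 5.73e-06). B2m, the light chain shared by all class I molecules, had 5010, 4644, 658 and 559 CPM, with 430 in the control and 1814 and 1122 at day 14 (-2.99 ± 0.23). Psmb8, a subunit of the immunoproteasome that cuts antigenic peptides, had 208, 260, 11.5 and 9.84 CPM (-4.46 ± 0.24). H2-K1 and B2m were lower at day 11 than at days 7 and 14, but the list was not, with median log2 differences from the control of 4.37 at day 7, 0.64 at day 11 and 0.53 at day 14. For these 2 genes control and day 11 were low together, as for the 13 genes that set those libraries apart, and recovery and a difference between animals or processing cannot be told apart. Class I heavy chain genes are near-identical copies of one another, so their separate values depend on how reads were assigned.

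The promoters of genes from both lists are shown because the lists fell together. Each line gives the 250 bases before the transcription start, 5′ to 3′ on the gene's strand (RefSeq, GRCm38.p6). Capitals mark matches to the interferon-stimulated response element (GAAA, any 2 bases, GAAA), or to a narrow form of the NF-kB motif (GGGA, any base, TTTCC), on either strand. Other forms of either motif were not searched for and stay in lower case. The windows are chr5:92348890-92349139 on the minus strand for Cxcl10, chr19:34583279-34583528 on the plus strand for Ifit3 and chr2:122147437-122147686 on the plus strand for B2m.
Cxcl10: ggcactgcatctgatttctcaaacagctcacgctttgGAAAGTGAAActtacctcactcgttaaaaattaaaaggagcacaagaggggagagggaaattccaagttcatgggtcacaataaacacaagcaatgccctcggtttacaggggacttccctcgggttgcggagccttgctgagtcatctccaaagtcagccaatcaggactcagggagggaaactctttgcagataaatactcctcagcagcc
Ifit3: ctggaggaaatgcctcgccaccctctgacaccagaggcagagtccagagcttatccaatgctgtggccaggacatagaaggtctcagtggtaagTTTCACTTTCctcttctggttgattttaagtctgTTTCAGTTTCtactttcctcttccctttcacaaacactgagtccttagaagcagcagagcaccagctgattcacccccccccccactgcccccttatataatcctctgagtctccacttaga
B2m: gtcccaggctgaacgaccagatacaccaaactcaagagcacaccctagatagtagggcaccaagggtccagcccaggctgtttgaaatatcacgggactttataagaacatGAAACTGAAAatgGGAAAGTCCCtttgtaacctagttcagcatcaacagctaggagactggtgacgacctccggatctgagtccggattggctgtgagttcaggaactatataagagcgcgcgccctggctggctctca
In Cxcl10 the match GAAAGTGAAA begins 213 bases before the start. Ifit3 holds 2 matches, TTTCACTTTC at 156 and TTTCAGTTTC at 122 bases before the start. B2m holds the interferon element GAAACTGAAA at 139 and the NF-kB motif GGAAAGTCCC at 126 bases before the start.

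Of the 18 interferon genes tested, 13 matched the RefSeq table by symbol, and 6 of them (46.2%) held the interferon element, namely Ifit1, Ifit3, Isg15, Bst2, Gbp2 and Cxcl10. In the MHC class I list it was 2 of 10 (B2m and H2-T23), in the injury list 1 of 26, in the transport list 1 of 30 and in the metabolic list 0 of 32. Over all genes with a promoter window, 936 of 27025 (3.46%) held it. The NF-kB motif was in 112 of 27025 genes (0.414%), in 1 of 10 MHC class I genes, in 3 of 26 injury genes (Csf1, Cxcl1 and Cxcl2), and in 0 of 13 interferon, 0 of 30 transport and 0 of 32 metabolic genes. A match is a description of letters and does not show that a factor binds there. Since other forms of the motifs were not searched for, a gene without a match may still hold such a form.

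Heat shock genes rose in part. In proximal tubule cells 8 of 12 rose and 2 fell, with a median of 1.23. Hspa1a, the stress-inducible HSP70, had 14.1 and 35.6 CPM at day 7, 263 and 227 at day 11, 33.6 in the control, and 8.54 and 8.12 at day 14 (3.19 ± 0.33; edgeR adjusted p = 6.39e-05). Its near-identical copy Hspa1b, named after its values were seen, had 16.0, 16.8, 114 and 77.8 CPM, and reads of the pair may be split uncertainly. Hspb1, a small heat shock protein also induced by tubule injury, fell from 400 and 758 to 167 and 109 CPM (-2.07 ± 0.33). Hspa1a at day 11 was above day 7, day 14 and the control. The list as a whole was near the control at day 11, with median log2 differences from it of -1.20 at day 7, -0.087 at day 11 and -1.25 at day 14. For the list, control and day 11 stood apart from days 7 and 14, and recovery and a difference between animals or processing cannot be told apart. Mitochondrial shares were also higher at day 11, as given above, and their part in the result was not tested. Of 17 immediate early genes, which respond within minutes to stimuli, 4 rose and 6 fell (2 and 9 with scaling by library size alone). Fos had 337, 474, 645 and 649 CPM (0.67 ± 0.23; edgeR adjusted p = 0.0373), turning to -0.028 with scaling by library size alone.

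Thick ascending limb cells (125, 269, 305 and 212) reabsorb salt and make uromodulin and epidermal growth factor. In them 11 of 19 distal transport genes rose and 22 of 25 injury genes fell. Of 8494 genes, 1195 rose and 945 fell, 25.2% in all (14.1% upward, 11.1% downward), and the days did not overlap for 65.7%. With scaling by library size alone 584 rose and 2969 fell. The calls of this class rest on both day 7 libraries. Without either day 7 library edgeR called 0 genes, with 2578 and 2610 at an unadjusted p under 0.05, and DESeq2 called 1212 on all 4. Without the first day 11 library 1292 were called.

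Of 19 distal transport genes tested in thick ascending limb, 11 rose, 1 fell and 7 were not called, with a median of 0.99. Egf, the epidermal growth factor precursor, had 98.7 and 491 CPM at day 7 and 2824 and 3422 at day 11 (3.35 ± 0.46; edgeR adjusted p = 6.97e-05). That remained below the control's 9374 and the 8490 and 8033 of day 14. Lpl, a lipase, had 60.8, 79.3, 1398 and 1317 CPM (4.24 ± 0.26), and Ckb, the creatine kinase that buffers ATP, 76.0, 137, 1868 and 1256 (3.82 ± 0.30). The control had 1757 CPM of Lpl and 1369 of Ckb, and both day 11 libraries lay far above both day 7 libraries.

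Channel genes changed less. Kcnj1, the potassium channel ROMK, had 351, 402, 611 and 540 CPM (0.61 ± 0.22; edgeR adjusted p = 0.0488), and the call was lost with scaling by library size alone (0.04) and with a replicate block (edgeR adjusted p = 0.0625). Kcnj16, an inward rectifier, had 670, 576, 308 and 317 CPM (-0.99 ± 0.22). Kcnj16 was named after its values were seen.

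The injury list fell in 22 of 25 genes tested in thick ascending limb, with none higher and a median of -3.61. Clu, the extracellular chaperone clusterin, had 4983 and 3116 CPM and then 131 and 109 (-5.06 ± 0.31; edgeR adjusted p = 5.76e-08). Lcn2, the iron-scavenging urinary injury marker NGAL, had 1146, 1586, 109 and 79.4 CPM against 6.44 in the control. Krt19, an epithelial keratin, had 132, 220, 2.30 and 6.80 CPM (-5.49 ± 0.49), and Anxa1, an anti-inflammatory annexin, 191, 184, 12.7 and 6.80. Spp1 was at 13276, 23051, 6518 and 5855 CPM (-1.55 ± 0.28), against 2354 in the control. Sema3c, a guidance cue, had 476, 335, 18.4 and 27.2 CPM. Of the interferon list 8 of 11 fell, of MHC class I 7 of 10, and of proliferation 9 of 17, with none higher in any of them.

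**Figure D3:**
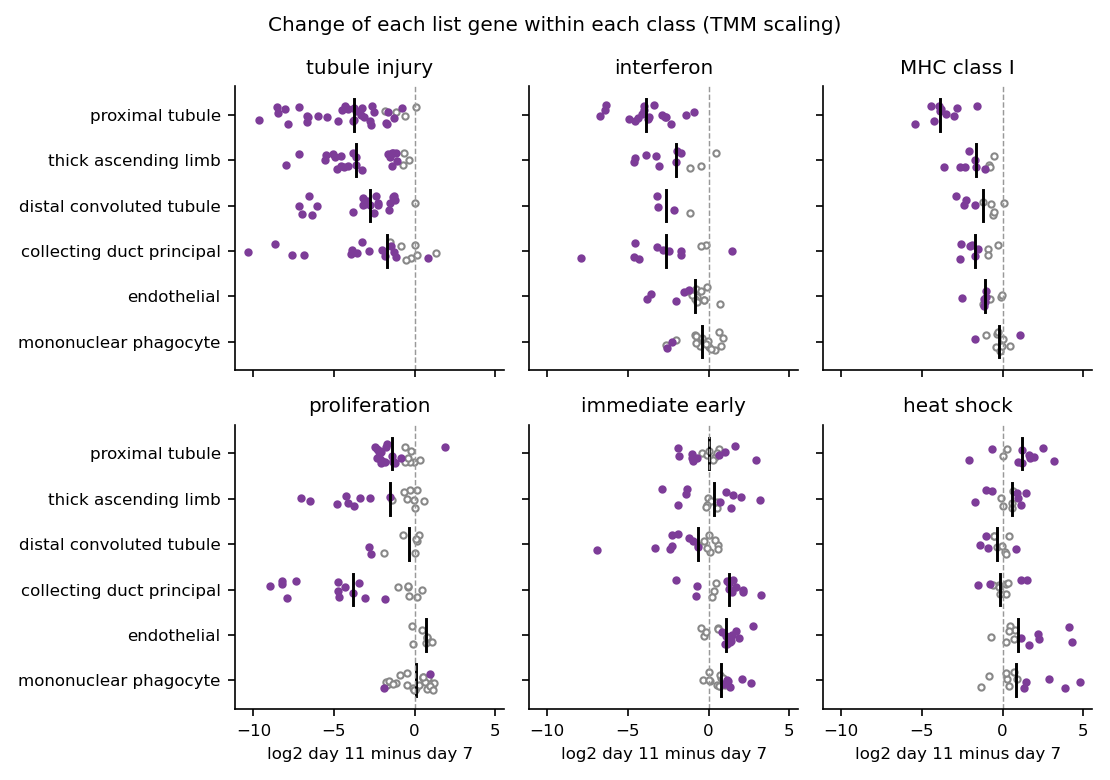
Log2 change from day 7 to day 11 of every tested gene of 6 lists in 6 classes, with 1 point per gene (filled purple where called, open grey where not) and a black bar at the median. Injury medians lie far below 0 in proximal tubule (-3.73) and thick ascending limb (-3.61), and heat shock medians lie above 0 in endothelial cells (0.97) and phagocytes (0.81).

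The changes of proximal tubule and thick ascending limb were compared in 1 model with library as a block. Of 11216 genes, 1072 differed, 9.56% (584, or 5.21%, with a change more positive in proximal tubule, and 488, or 4.35%, more negative). The change of MHC class I genes was more negative in proximal tubule for 8 of 10, with none the other way and a median difference of -2.0. For H2-K1, which had 822, 781, 164 and 81.6 CPM in thick ascending limb, the difference was -1.56 (edgeR adjusted p = 3.24e-05), and for B2m, with 1104, 943, 204 and 206, it was -0.66 (edgeR adjusted p = 0.0296). The change of heat shock genes was more positive in proximal tubule for 8 of 12, with none the other way; of these 8, Hsp90aa1 was not called in proximal tubule itself. For Hspa1a, at 62.3, 157, 317 and 317 CPM in thick ascending limb, the difference was 1.78 (edgeR adjusted p = 3.09e-06).

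Most injury genes did not differ detectably between the segments. Of 35 differences 3 were called positive and 5 negative, beside 5.21% and 4.35% of all genes. Krt19 fell in thick ascending limb and was not called in proximal tubule (difference 5.2; edgeR adjusted p = 1.15e-06). Spp1 fell in both, and further in proximal tubule (-2.22). Lcn2 did not differ detectably (-0.50; edgeR adjusted p = 0.439).

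There were 34 genes called in both segments with opposite directions. Of 12533 genes tested in proximal tubule 5269 were called, and of 8494 in thick ascending limb 2140. On their higher day, some of the 34 lay below the level over all cells of the library. Examples are Degs2 in thick ascending limb (lowest ratio 0.259) and Rasl11a in proximal tubule (0.183). The part of counts from other cells in those was not tested. The genes named below lay above that level in both segments. Ptgds, a prostaglandin D synthase, fell in proximal tubule from 275 and 355 to 48.3 and 49.0 CPM and rose in thick ascending limb from 30.4 and 32.8 to 196 and 77.1 (difference -4.87 ± 0.31; edgeR adjusted p = 2.08e-10). Hbegf, a heparin-binding ligand of the EGF receptor, rose in proximal tubule from 83.6 and 99.2 to 292 and 296 CPM and fell in thick ascending limb from 185 and 336 to 119 and 129 (difference 2.79; edgeR adjusted p = 6.04e-09). Atp11a, a phospholipid flippase, went from 216 and 248 to 428 and 430 CPM and from 216 and 170 to 41.5 and 59.0. Gdpd3, a lysophospholipase D, went from 17.2 and 17.0 to 4.83 and 6.39 CPM in proximal tubule, and in thick ascending limb from 0 and 1.64 to 46.1 and 36.3, where day 7 held 3 counts (ratio 35.5, 95% counting interval 11.5 to 177). Ptgds, Hbegf, Atp11a and Gdpd3 were named after their values were seen.

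**Figure D4:**
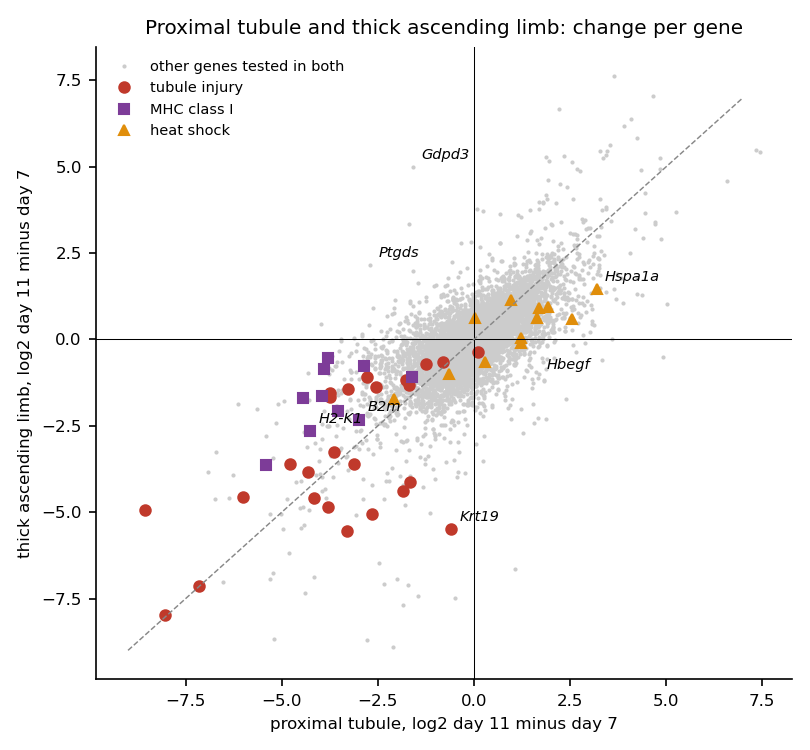
Log2 change from day 7 to day 11 per gene in proximal tubule (horizontal) and thick ascending limb (vertical), with the dashed line at equality; grey dots are other genes tested in both, red circles are tubule injury genes, purple squares MHC class I and orange triangles heat shock. Most MHC class I genes lie above the dashed line, 8 of 10 with a called difference (median -2.0).

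Distal convoluted tubule cells (63, 117, 153 and 118) fine-tune salt and magnesium reabsorption, and 11 of 17 distal transport genes rose while 20 of 21 injury genes fell in them. Of 5803 genes, 787 rose and 731 fell, 26.2% in all (13.6% and 12.6%), and the days did not overlap for 66%. With scaling by library size alone 366 rose and 1987 fell, and without the first or second day 7 library 680 and 206 genes were called. Of 17 distal transport genes 11 rose and none fell, with a median of 1.06. Egf had 53.9 and 202 CPM at day 7 and 2085 and 1936 at day 11 against 5715 in the control (3.86 ± 0.39; edgeR adjusted p = 4.67e-05). Wnk1, the kinase that controls the sodium chloride cotransporter, had 589, 565, 2227 and 1939 CPM, and Defb1, an antimicrobial defensin, 1067, 1480, 9579 and 7520. Sult1a1, a phenol sulfotransferase, had 6.73, 8.64, 127 and 129 CPM. Klk1b3 and Klk1b9, tissue kallikreins of a cluster of near-identical copies, reached 1122 and 2125 CPM and 573 and 891 CPM, above the control's 508 and 206. Klk1, another kallikrein, is in the gate panel of this class, and the part of reads shared with it was not tested.

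The injury list fell in 20 of 21 genes tested in distal convoluted tubule, with a median of -2.77. Lcn2 had 2673 and 1570 CPM and then 52.8 and 3.49 (-6.08 ± 0.51; edgeR adjusted p = 1.81e-05). Edn1, the vasoconstrictor endothelin 1, had 222, 211, 7.92 and 3.49 CPM, and Ccl20, a chemokine for lymphocytes and dendritic cells, 212, 155, 10.6 and 0. Il1f6, an interleukin 36 cytokine, held 216 counts at day 7 and 2 at day 11 (ratio 82.0, 95% counting interval 22.4 to 681), and the chemokine Cxcl17 held 136 and 2 (ratio 51.6, 14 to 431). Of 17 immediate early genes 9 fell and none rose.

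Collecting duct principal cells (219, 383, 185 and 130) set final water and sodium reabsorption, and 13 of 19 proliferation genes and 14 of 22 injury genes fell in them. Of 7395 genes 644 rose and 591 fell, 16.7% in all (8.71% and 7.99%), and the days did not overlap for 58.7%. Scaling by library size alone gave 378 and 1086. Without the first day 7 library 796 genes were called, and without the first or second day 11 library 610 and 480. Proliferation genes fell in 13 of 19 and rose in none, with a median of -3.81. Top2a, a topoisomerase of dividing cells, had 227 and 102 CPM and then 5.04 and 6.66 (-4.76 ± 0.51; edgeR adjusted p = 8.6e-16), and Mki67 had 144, 68.7, 7.56 and 6.66. In the control, Top2a stood at 82.4 and Mki67 at 81.0 CPM, so day 11 was below both. Day 14 was below them too, with 0 and 7.52 CPM of Top2a and 5.95 and 9.02 of Mki67.

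Injury genes in collecting duct fell in 14 of 22 and rose in 1. Sprr2f, a cornified-envelope protein, had 753, 616, 0 and 13.3 CPM (-6.85 ± 0.47). Sprr2g, a near-identical copy, held 518 counts at day 7 and 0 at day 11, at least 40.7-fold lower against a limit of 3 counts over the day. Lcn2 had 2559, 3203, 436 and 357 CPM, still above the control's 34.9. The one that rose was Lgals3, galectin 3, a normal product of this segment (841, 1170, 1564 and 1979 CPM; 0.81 ± 0.27; edgeR adjusted p = 0.0212), with 1569 in the control.

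Distal transport rose in 7 of 16 genes of collecting duct and fell in 1, but in 3 against 2 with scaling by library size alone. Kcne1, a potassium channel subunit, had 135, 199, 320 and 450 CPM against 478 in the control (1.18 ± 0.28). Immediate early genes rose in 9 of 15 and fell in 3. Fos had 1078, 1570, 3006 and 3249 CPM (1.24 ± 0.28; edgeR adjusted p = 0.00023), and Nr4a1, a nuclear receptor induced by stimuli, 8.41, 29.9, 204 and 223. Ces1d, a carboxylesterase, had 43.4 and 50.4 CPM at day 7 and 887 and 1020 at day 11, above the control's 121 and day 14's 106 and 180 (4.32 ± 0.31). Arl4d, a small GTPase, had 15.4, 41.5, 315 and 290 CPM. BC018473, one of the 13 genes that set control and day 11 apart, was at 0 in both day 7 libraries and at 587 and 440 CPM at day 11.

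Tubular cells without a segment (610, 651, 210 and 197) were not one kind of cell on the 2 days. Cells with 2 or more segments at 3 panel genes each were 20.7% and 30.1% of them at day 7, and 62.4% and 86.3% at day 11, against 84.4% in the control. Those with no segment at 3 genes were 60.3% and 53.3%, and 30% and 8.12%. Of 9917 genes 1569 rose and 1314 fell, 29.1% in all (15.8% and 13.2%), and the days did not overlap for 67.9%. Scaling by library size alone gave 887 and 3409. Without either day 7 library edgeR called 0 genes (2673 and 3109 at an unadjusted p under 0.05), and without the second day 11 library 1823. Egf went from 11 and 17.0 to 1519 and 2681 CPM (7.18 ± 0.37; edgeR adjusted p = 1.57e-07), and Lcn2 from 1506 and 1077 to 91.5 and 71.9. The injury list fell in 27 of 33 genes. These values compare mixtures of cells, and a change within cells and a change of mixture cannot be told apart.

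Endothelial cells (101, 283, 220 and 128) line the cortical vessels and glomerular capillaries. In them 6 of 12 heat shock genes and 11 of 16 immediate early genes rose, and 4 of 16 activation, 5 of 16 interferon and 6 of 10 MHC class I genes fell. Of 4905 genes 242 rose and 246 fell, 9.95% in all (4.93% and 5.02%), and the days did not overlap for 55.8%. Scaling by library size alone gave 159 and 458. Without the first or second day 11 library 293 and 191 genes were called, and with a replicate block 800.

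Heat shock genes rose in 6 of 12 in endothelial cells and fell in none. Hspa1a had 129 and 125 CPM at day 7 and 2332 and 2052 at day 11, against 382 in the control and 196 and 291 at day 14 (4.12 ± 0.30; edgeR adjusted p = 9.49e-13). Immediate early genes rose in 11 of 16, with a median of 1.11. Atf3, a stress-induced transcription factor, had 99.97, 200.2, 1071 and 1171 CPM (2.78 ± 0.29), and Fos had 1985, 2283, 5620 and 6064 (1.45 ± 0.26). For Hspa1a both day 11 libraries were above day 7, day 14 and the control, while Atf3 had 837 CPM in the control. Mitochondrial genes made up 3.23% to 3.88% of endothelial counts at day 7 and 9.45% to 12.1% at day 11, and their part in these results was not tested.

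Of 20 endothelial function genes 5 rose and 1 fell, with a median of -0.02. Ehd3, a marker of glomerular endothelium, had 914, 833, 2414 and 3424 CPM (1.74 ± 0.26; edgeR adjusted p = 1e-05), and Klf2, a flow-responsive factor, 764, 842, 1910 and 1540. Fabp4, a fatty acid binding protein, fell from 1892 and 3731 to 1064 and 809 CPM. Of 16 activation genes 4 fell and 1 rose (7 and 0 under scaling by library size alone). Igfbp3, an insulin-like growth factor binding protein, had 1278, 1392, 275 and 110 CPM (-2.72 ± 0.30; edgeR adjusted p = 4.08e-08), and Col4a1, of the basement membrane, 600, 733, 246 and 434. Plat, the tissue plasminogen activator, rose from 728 and 1174 to 1550 and 2168 CPM (0.94 ± 0.26). Calca, the calcitonin gene, had 7.14, 12.2, 257 and 194 CPM against 216 in the control. The class pools cortical vessels and glomerular capillaries, and the part of their mixture in these changes was not tested.

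MHC class I fell in 6 of 10 endothelial genes, with a median of -1.06. B2m had 7762 and 8334 CPM at day 7, 4028 and 3113 at day 11, 4150 in the control, and 9662 and 8820 at day 14 (-1.17 ± 0.26; edgeR adjusted p = 0.00239). For this gene control and day 11 were again low together, with the same limit as in proximal tubule. Ifit3 held 59 counts at day 7 and 3 at day 11 (ratio 15.6, 95% counting interval 5.07 to 77.6). It had 3.57 and 12.9 CPM at day 11, below the control's 47.4 and the 81.8 and 633 of day 14. Haemoglobin genes, a sign of red cells, fell in all 4 tested. Hba-a2 had 436 and 1670 CPM at day 7 and 164 and 149 at day 11, and the 2 near-identical alpha copies share reads.

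Phagocytes (1130, 1649, 103 and 63) were few at day 11, and 6 of 8 MHC class II genes and 5 of 12 heat shock genes rose in them. The class pools macrophages, monocytes and dendritic cells, and the part of a changed mixture in its results was not tested. Of 8303 genes 209 rose and 82 fell, 3.5% in all (2.52% and 0.988%), and the days did not overlap for 51.9%. Scaling by library size alone gave 148 higher and 373 lower. Without the first day 7 library 153 genes were called, and without the first or second day 11 library 185 and 125. Without the 5% of cells with the highest doublet scores 194 were called.

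MHC class II, which presents extracellular antigen to CD4 T cells, rose in 6 of 8 genes and fell in none, with a median of 1.35. Cd74, its invariant chain, had 2840 and 6491 CPM at day 7 and 17106 and 14910 at day 11, against 7359 in the control (1.78 ± 0.32; edgeR adjusted p = 0.000302). H2-Aa, an alpha chain, had 2266, 6251, 11202 and 11510 CPM (1.41 ± 0.33; edgeR adjusted p = 0.00622), and H2-Eb1, a beta chain, 2022, 7079, 10825 and 11020 (1.26 ± 0.35; edgeR adjusted p = 0.0293). The second day 7 library stood well above the first, and both stood below day 11. DESeq2 called 2 of the 8, leaving out the first day 7 library 2, the first day 11 library 3 and the second day 11 library 2, and leaving out the second day 7 library 7.

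Of 23 inflammatory monocyte genes 6 rose, 2 fell and 15 were not called in phagocytes, with a median of 0.07. Il1b, the interleukin 1 beta precursor, had 255 and 443 CPM at day 7 and 2091 and 2302 at day 11, against 6918 in the control and 3678 and 3752 at day 14 (2.65 ± 0.30; edgeR adjusted p = 4.49e-08). Ccl4, a chemokine for T cells and monocytes, had 400, 529, 1238 and 2164 CPM, and Cxcl1, a neutrophil chemokine, 36.0, 33.3, 369 and 309. Ccl17, a chemokine of dendritic cells, had 18.5, 26.2, 192 and 416 CPM and was at 0 in the control's 40 phagocytes (3.69 ± 0.37; edgeR adjusted p = 2.57e-09). Tnf, Cxcl2 and Ccl3, named after their values were seen, rose by 2.50, 2.19 and 1.48 on the log2 scale. The chemokines Ccl2, Ccl6, Ccl7, Ccl9 and Ccl12 of the same list were not called. Of the interferon list, Cxcl9 fell from 54.0 and 248 to 15.4 and 53.3 CPM (-2.27 ± 0.65; edgeR adjusted p = 0.04) and Cxcl10 was not called. The cytokine genes named here thus did not all move one way. For Il1b and Ccl4 the higher values of day 11 were in the direction of the control.

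The resident or tissue-repair macrophage list showed no common direction, with 2 of 19 higher, 1 lower and a median of 0.21 against -0.12 for all genes. C1qa, of the first complement component, had 1132, 1649, 2629 and 2792 CPM (0.96 ± 0.28; edgeR adjusted p = 0.04), a call lost with DESeq2 and with scaling by library size alone. Gpnmb, a glycoprotein of lipid-laden and repair macrophages, had 343 and 183 CPM and then 7.69 and 53.3 (-3.26 ± 0.54; edgeR adjusted p = 7.21e-05), and was at 0 in the control and at day 14. Apoe, the lipid carrier, had 18771, 15930, 24318 and 20686 CPM and was not called (0.38 ± 0.30; edgeR adjusted p = 0.587).

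Arg1, the arginase of alternatively activated macrophages, held 713 counts at day 7 and 1 at day 11 (ratio 27.5, 95% counting interval 4.91 to 1086). Ifi202b, an interferon-inducible DNA sensor, held 1447 counts at day 7 and 1 at day 11 (ratio 55.7, interval 9.98 to 2202), and had 0 CPM in the control and 297 and 834 at day 14. Plac8, a gene of newly arrived monocytes named after its values were seen, had 113, 159, 15.4 and 21.3 CPM, 0 in the control, and 706 and 1390 at day 14. For Ifi202b and Plac8, control and day 11 were both low and day 14 was the highest. That is the split of the 13 genes that set those libraries apart, and recovery and a difference between animals or processing cannot be told apart here either.

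In phagocytes Hspa1a had 20.5 and 23.3 CPM at day 7 and 753 and 458 at day 11, against 157 in the control and 92.9 and 88.4 at day 14 (4.79 ± 0.35; edgeR adjusted p = 5.3e-13), and 5 of 12 heat shock genes rose with none lower. Hspa1a therefore stood above day 7, day 14 and the control at day 11 in proximal tubule, endothelial cells and phagocytes. The heat shock list was not higher in every class. In distal convoluted tubule Hspa1a was not called, and 1 of 11 genes rose and 3 fell, while in collecting duct 2 of 11 rose and 2 fell. Since Kap was found in 71.8% and 90.5% of thinned phagocytes at day 11 against 4.4% and 9.67% at day 7, proximal tubule transcripts in this class were read as background and are not reported as changes.

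**Figure D5:**
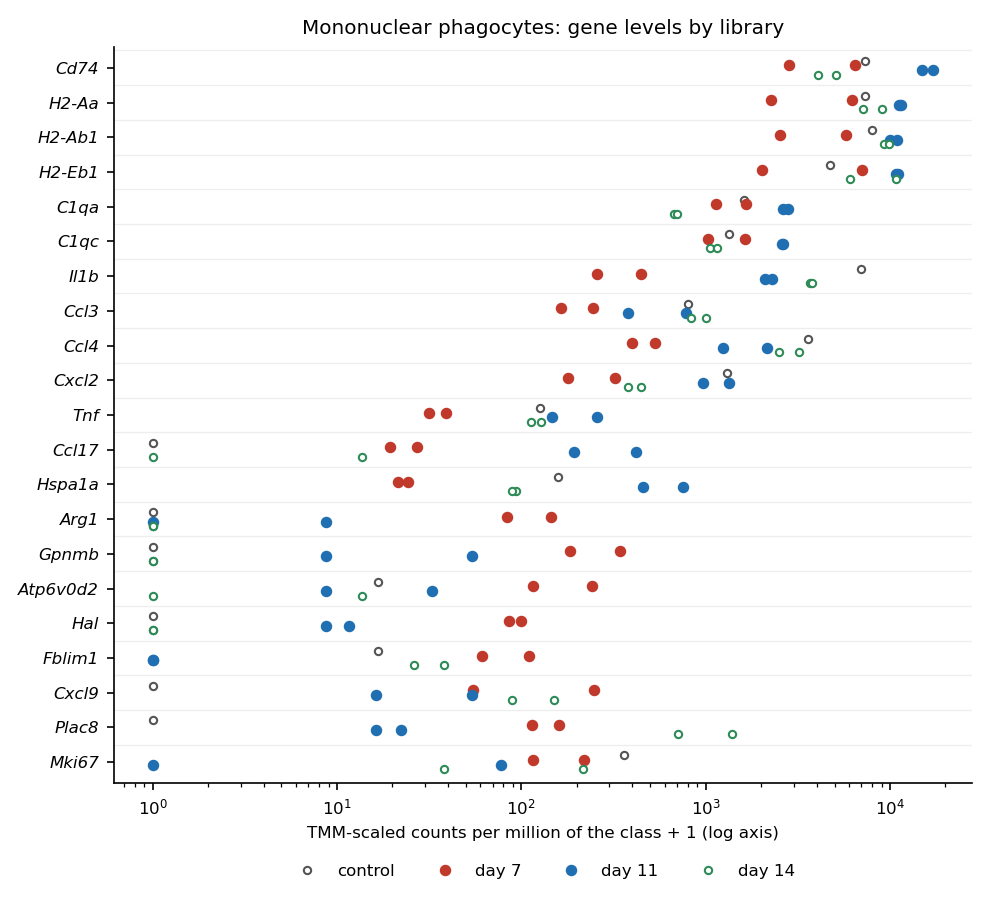
Phagocyte genes by library, as TMM-scaled CPM of the class plus 1 on a log axis, with 1 point per library (control open grey, day 7 red, day 11 blue, day 14 open green). Cd74 rises from 2840 and 6491 to 17106 and 14910 CPM and Il1b from 255 and 443 to 2091 and 2302, while Gpnmb drops from 343 and 183 to 7.69 and 53.3.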

How the data were processed

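Each deposited file holds a table of counts per gene symbol and cell barcode for 1 library. The authors prepared them by Drop-seq, per the labels' protocols, and the whole numbers were read as UMI counts, which the labels do not state. The submitters' processing notes name Bowtie2 2.2.7 and mm10, with no role given. The members and gene lists were chosen with earlier results of these data known. The tables held 28808 genes, and 128 of 130 panel genes were in them. A cell with at least 3 panel genes but no lead of 2 over the 12 competing classes was called mixed. Mixed cells were left out, except those placed among tubular cells without a segment. That class took mixed or unplaced cells with at least 3 tubular panel genes and a lead of 2 over every non-tubular class. Doublets of 2 segments can therefore lie in it. Scrublet (scanpy 1.11.5) marked at most 0.111% of a library by its automatic threshold. Doublets were therefore handled in part through the mixed class, and by leaving out the top 5% of scores as an alternative.

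Counts were summed per library and class (at least 25 cells and 50000 counts in each of the 4 libraries) and tested with edgeR 4.0.16 in R 4.3.3 after filterByExpr and TMM. Each gene had 2 residual degrees of freedom, and edgeR added 8.19 (proximal tubule) to 300 (collecting duct) from spread pooled over genes. In every class the p-values therefore rest mostly on the pooled spread, and in collecting duct almost wholly. DESeq2 1.42.0, library-size scaling, no filter, all 10 libraries, each library left out, a replicate block and other gate settings were alternatives. Named genes were the 6 with the largest change in each direction among called genes of average log2 CPM of at least 6, with days not overlapping, outside the gate panel and at or above the all-cell level, plus up to 8 of each list by level; others are marked. Intervals cover counting error only. Values of some genes are not reported here.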

Additional observations from a re-analysis of the deposited data

Results flagged for a closer look

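The change from day 7 to day 11 differed between proximal tubule and thick ascending limb for 1072 genes in the test of the class by day interaction (quasi-likelihood test of edgeR, Benjamini-Hochberg adjusted, with library as a block). A negative value means a more negative change in proximal tubule. Among the genes described above, the difference of the log2 changes was -4.87 for Ptgds, -6.69 for Gdpd3, 2.79 for Hbegf, 2.84 for Atp11a, -1.56 for H2-K1, -0.66 for B2m, 1.78 for Hspa1a and 5.2 for Krt19.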

How the results depend on the processing

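Of 158 pairs of a gene and a class followed through the alternatives, 155 were called, and of 2363 values under alternatives 2180 kept direction and side of the threshold, 180 kept direction but lost the call, and 3 reversed. The reversals came with scaling by library size alone in proximal tubule: Cpt1a -0.051, Fos -0.028 and Slc4a4 -0.49. That scaling gave 3553 called genes in thick ascending limb, 2353 in distal convoluted tubule and 521 in phagocytes. DESeq2 gave 1212 in thick ascending limb, 703 in distal convoluted tubule, 573 in collecting duct, 1810 in tubular cells without a segment and 144 in endothelial cells. A gate lead of 1 gave 1447 in tubular cells without a segment. Leaving out each library in turn gave 3447 to 5311 in proximal tubule, 0 to 1511 in thick ascending limb, 206 to 1151 in distal convoluted tubule, 480 to 1369 in collecting duct, 0 to 2719 in tubular cells without a segment, 191 to 515 in endothelial cells and 125 to 352 in phagocytes; the lone library of a day is then assumed to vary like the others. Shares moved as differences in percentage points: phagocytes -28.2 with 4 panel genes, -32.0 with a lead of 1 and -27.0 with a lead of 3 (-30.1 as reported), collecting duct -5.44, -2.45 and, with at least 300 genes, -4.97 (-3.80 as reported), and podocytes 1.81 with at least 300 genes (2.69 as reported). The causes of these moves were not tested. The difference between replicates 1 and 2 was taken for each gene on each day. Over genes, the differences of the 2 days correlated at 0.0677 to 0.288 by class, which does not pair the libraries. A replicate block gave 6176, 2457 and 1760 called genes in proximal tubule, thick ascending limb and distal convoluted tubule. It gave 1749, 3692 and 394 in collecting duct, tubular cells without a segment and phagocytes, and 800 in endothelial cells. Leaving out mitochondrial genes, an alternative chosen after seeing the data, kept every count within 1.5 times. The comparison of endothelial with stromal cells was not run, since stromal cells were too few. The 166 phagocytes of day 11 limit what low genes can show.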

Other observations

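Haemoglobin transcripts rose in all 4 genes tested in thick ascending limb, distal convoluted tubule and collecting duct, and fell in all 4 in endothelial cells. In thick ascending limb Hbb-bs, a beta globin, had 83.6 and 7.65 CPM at day 7 and 379 and 213 at day 11, below its level over all cells of the same libraries (lowest ratio 0.450). As a ratio, the 2 day 7 libraries thus differed from each other by more than the day 11 libraries did.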
